A study of Rattus norvegicus with 11 samples.

Results

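The 8 genes described here carry out antigen presentation on major histocompatibility complex (MHC) class II. They were chosen by name for their function, with earlier results of these data known. They are Cd74, Ciita, RT1-Da, RT1-Db1, RT1-Ba, RT1-Bb, RT1-DMa and RT1-DMb. All 8 were found among the 30560 genes counted, and all 8 were among the 15742 genes with enough reads to be tested. RNA of the striatum was sequenced at day 3 in 11 adult male Sprague-Dawley rats, an outbred stock, with one library per rat. Intracerebral hemorrhage of 2 sizes was made with collagenase VII-S, an enzyme that breaks vessel walls, injected into the right striatum. Common hemorrhage (IC, 3 rats) received 0.2 U in 1.0 µL of saline. Severe hemorrhage (IS, 3 rats) received 0.6 U in 3.0 µL. In IS-HA (3 rats) the severe dose was followed at 6 h by aspiration of 150 µL, intended to take out about 75% of the hematoma. Normal rats (2) received neither collagenase nor aspiration. No rat with an injection of saline alone was among the samples, so the needle track and the hemorrhage cannot be told apart in any comparison with Normal. Rats are named below by group and by the number in their labels.

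MHC class II molecules present peptides from material taken up by the cell to helper T cells. In the brain they are found mainly on microglia, macrophages and dendritic cells. Ciita is the co-activator that switches on transcription of the whole family. The invariant chain Cd74 assembles with newly made α and β chains, blocks their groove and guides them to endosomes. RT1-Da and RT1-Db1 encode the α and β chains of RT1-D, the rat relative of human HLA-DR, and RT1-Ba and RT1-Bb encode those of RT1-B, the relative of HLA-DQ. RT1-DMa and RT1-DMb form the endosomal DM molecule, which exchanges the last fragment of the invariant chain for peptide.

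Class II promoters are known for a conserved X box and Y box, the Y box holding the letters ATTGG, on which the complex that recruits Ciita assembles. All 8 members had a higher mean in IC, IS and IS-HA than in Normal, as given below. The 250 bases before the annotated start were searched in the RefSeq promoters of build GRCr8. These held an entry for 6 of the 8 genes (not Ciita or RT1-DMb). All 6 held ATTGG on one or the other strand, as did 34.0% of all 33469 promoters. The letters ACNGATG, or CATCNGT on the other strand, with N for any base, were chosen as an X box pattern with these promoters in view, so their presence in the members is a description. They were present in 4 of the 6 promoters and in 8.55% of all promoters. In the same 4 (RT1-Da, RT1-Db1, RT1-Bb and RT1-DMa) they preceded ATTGG on the same strand by 22 or 23 bases. Of all promoters, 69 (0.206%) held this pair with 10 to 40 bases between its parts. Shown next are 75 bases around the pair in these 4 genes, read along the gene's strand, and then the matching stretch of RT1-Ba, which held ATTGG without that X box pattern. Capitals mark the X box letters and ATTGG, and all 5 stretches lie before the gene's start.
RT1-Da, chr20:4515306-4515380, plus strand: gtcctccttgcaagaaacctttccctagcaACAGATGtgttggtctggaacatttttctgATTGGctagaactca
RT1-Db1, chr20:4560228-4560302, minus strand: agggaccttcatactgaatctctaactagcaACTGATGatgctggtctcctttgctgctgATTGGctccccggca
RT1-Bb, chr20:4604165-4604239, minus strand: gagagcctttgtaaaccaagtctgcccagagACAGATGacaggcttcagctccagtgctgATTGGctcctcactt
RT1-DMa, chr20:4712385-4712459, minus strand: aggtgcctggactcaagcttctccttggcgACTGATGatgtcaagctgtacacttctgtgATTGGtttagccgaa
RT1-Ba, chr20:4576954-4577028, plus strand: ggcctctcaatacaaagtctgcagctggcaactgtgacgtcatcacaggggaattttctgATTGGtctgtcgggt
Of the other class II genes, RT1-DOb and RT1-Db2 also held the pair, with 20 and 21 bases between its parts, whereas RT1-DOa and RT1-Ha held only ATTGG. A match is a run of letters and was not tested as a binding site.

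The libraries held 6701301 to 18817645 counted reads, and 3 reads corresponded to 0.151 to 0.473 CPM, reads of a gene scaled to the same library total. The smallest library was IS-HA rat 2, and this rat stood apart from the other IS-HA rats in several class II genes, so the members' comparisons of IS-HA are given with and without it, and those of gene lists where a count of calls changed. Levels of single genes are given in CPM with edgeR's TMM factors, and levels of different genes are compared only in the authors' TPM, a like unit that also corrects for gene length. In bulk tissue, more cells of a type and more RNA per cell cannot be told apart.

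Ciita (ENSRNOG00000002659) was almost silent in normal striatum and was detected in all 9 hemorrhage rats. It had 2 reads in Normal rat 1 and 0 in Normal rat 3, where a count of 0 allows up to 0.174 CPM. It had 1.77, 3.27 and 2.75 CPM in IC rats 2, 3 and 4, 3.06, 3.42 and 7.43 CPM in IS rats 2, 3 and 4, and 1.79, 3.94 and 2.61 CPM in IS-HA rats 1, 2 and 3. Every hemorrhage rat was above both Normal rats, and the 3 hemorrhage groups overlapped. Over the pooled reads the ratio to Normal was 44.1 in IC (95% exact interval 11.9 to 368), 70.8 in IS (19.2 to 591) and 41.2 in IS-HA (11.04 to 346), intervals that cover counting error only. Ciita was also the least abundant of the 8, at 1.34 ± 0.61 TPM in IS (SD, n = 3).

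Cd74 (ENSRNOG00000018735) had the highest mean level per length of the 8 in IS and IS-HA. It had 11.6 and 5.46 CPM in Normal rats 1 and 3 and 79.0, 179.0 and 170.5 CPM in IC rats 2, 3 and 4. It had 214, 255 and 736 CPM in IS rats 2, 3 and 4 and 100.9, 421 and 154 CPM in IS-HA rats 1, 2 and 3. All IS rats were above all IC rats, IS rat 4 was the highest of the 11, and the IS-HA rats spanned from within the IC range to above IS rats 2 and 3. In TPM it was 7.99 ± 3.63 in Normal (n = 2), 140.3 ± 54.4 in IC, 367 ± 243 in IS and 202 ± 122 in IS-HA (SD, n = 3 each). The top mean in IS-HA rested on rat 2, at 339 TPM. IS-HA rats 1 and 3 had 104.8 and 161.3 TPM, below RT1-DMa (141.4 and 161.9) and RT1-DMb (134.8 and 167.5). In IS rat 2 Cd74 was also below both, at 215.5 TPM against 231.0 and 222.7, and in IS rats 3 and 4 it was above both.

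The chains of RT1-D had 13 to 21 reads in each Normal library and 119 to 910 reads in each hemorrhage library. RT1-Da (ENSRNOG00000032844), the α chain, had 1.12 and 0.756 CPM in Normal rats 1 and 3, 20.5, 38.9 and 40.5 CPM in IC rats 2, 3 and 4, 48.8, 47.7 and 125 CPM in IS rats 2, 3 and 4, and 29.2, 51.1 and 42.6 CPM in IS-HA rats 1, 2 and 3. RT1-Db1 (ENSRNOG00000033215), the β chain, had 1.31 and 0.756 CPM in Normal, 7.80, 13.3 and 15.5 CPM in IC, 22.7, 26.8 and 82.7 CPM in IS, and 13.7, 48.8 and 18.8 CPM in IS-HA, in the same order of rats. For both chains the IS rats lay above the IC rats without overlap, and IS rat 4 was again the highest. RT1-Db2 encodes a second RT1-D β chain, whose likeness in sequence to RT1-Db1 was not examined. How the counting treated any reads that fit both is not stated, so the level of each is uncertain.

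In the chains of RT1-B the highest of the 11 rats was IS-HA rat 2, not IS rat 4. RT1-Ba (ENSRNOG00000000451), the α chain, had 0.871 and 0.988 CPM in Normal rats 1 and 3, 3.47, 4.49 and 7.19 CPM in IC rats 2, 3 and 4, 6.73, 8.81 and 18.4 CPM in IS rats 2, 3 and 4, and 3.77, 53.8 and 4.94 CPM in IS-HA rats 1, 2 and 3. RT1-Bb (ENSRNOG00000032708), the β chain, had 3 and 6 reads in the Normal rats, or 0.187 and 0.349 CPM, then 3.54, 6.90 and 6.53 CPM in IC, 9.97, 8.09 and 20.0 CPM in IS, and 4.54, 33.3 and 7.64 CPM in IS-HA. IS-HA rats 1 and 3 were below all 3 IS rats for both chains, while IS-HA rat 2 was above all of them.

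RT1-DMa and RT1-DMb were the members with the highest level in normal striatum. RT1-DMa (ENSRNOG00000066773) had 22.3 and 13.1 CPM in Normal rats 1 and 3, 71.6, 114 and 126 CPM in IC rats 2, 3 and 4, 165, 181 and 259 CPM in IS rats 2, 3 and 4, and 98.1, 237 and 111.5 CPM in IS-HA rats 1, 2 and 3. RT1-DMb (ENSRNOG00000049491) had 11.6 and 9.82 CPM in Normal, 67.4, 103 and 106 CPM in IC, 139, 146 and 218 CPM in IS, and 81.7, 147 and 100.8 CPM in IS-HA. For both, the IS rats were above the IC rats without overlap. In Normal, RT1-DMa was at 23.0 ± 7.09 TPM and RT1-DMb at 16.1 ± 0.90 TPM (SD, n = 2), above Cd74 at 7.99 TPM, and the other 5 members were at 1.48 TPM or less. In IS the order was Cd74 at 367 ± 243, RT1-DMa at 260.5 ± 48.4, RT1-DMb at 248 ± 48.7, RT1-Da at 39.9 ± 21.5, RT1-Db1 at 17.8 ± 12.5, RT1-Ba at 17.4 ± 8.48, RT1-Bb at 4.91 ± 2.18 and Ciita at 1.34 ± 0.61 TPM (SD, n = 3). Within that order, Cd74, RT1-DMa and RT1-DMb lay within each other's spread, as did RT1-Db1 and RT1-Ba.

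**Figure D1:**
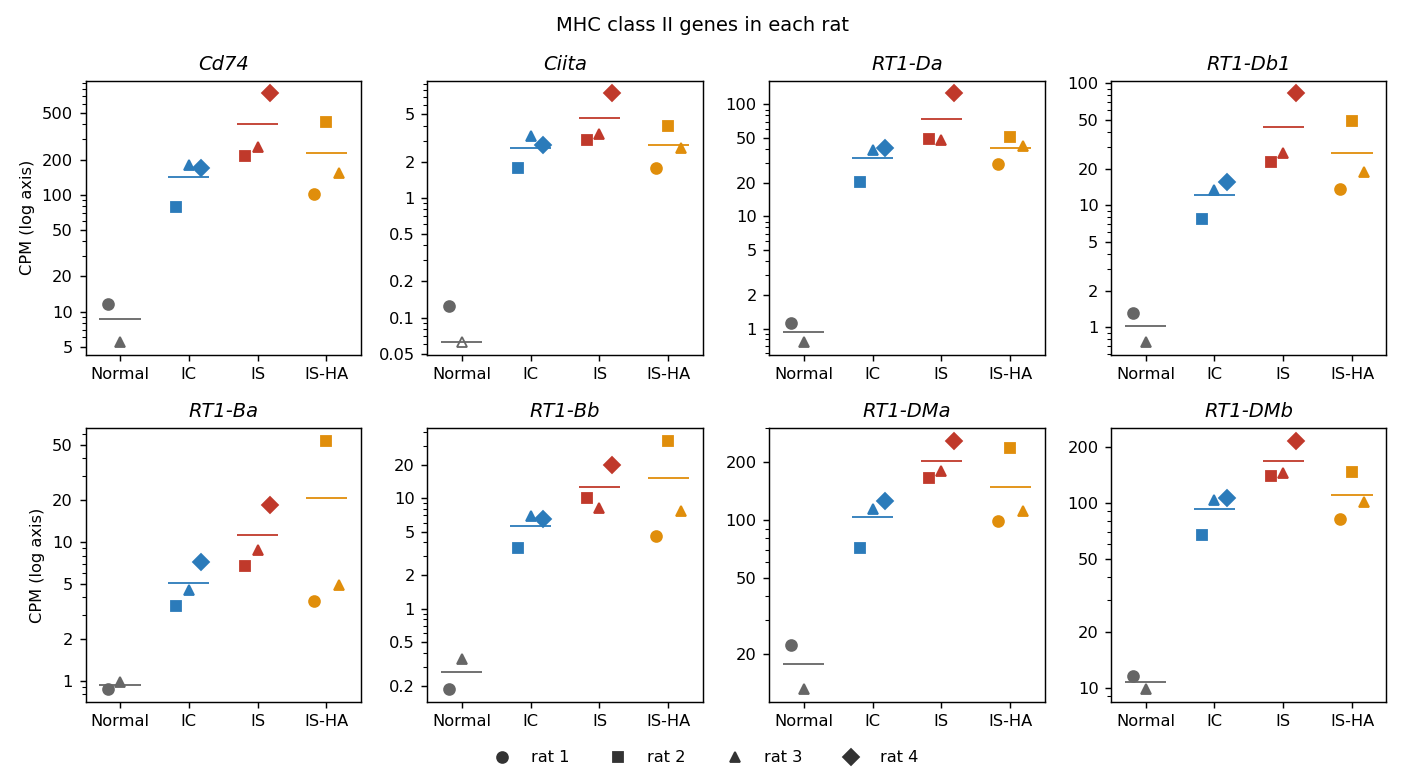
Level of each of the 8 class II genes in every rat, in CPM on a log axis that differs between panels. Symbols give the rat's number, lines give group means, and the open triangle is Ciita in Normal rat 3, which had 0 reads and is drawn at an arbitrary position. In every panel the 9 hemorrhage rats lie above both Normal rats, and IS-HA rat 2 is the highest of all for RT1-Ba and RT1-Bb.

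Common hemorrhage was compared with Normal to ask what the smaller bleed did. All 8 genes had a higher mean in IC, and 7 of 8 passed edgeR's quasi-likelihood test (adjusted p under 0.05 over all tested genes and a log2 fold change of at least 1), against 10.9% of all genes tested. RT1-Da rose 35.2-fold (log2 fold change 5.14, SE 0.61, adjusted p = 3.36e-04), Cd74 rose 16.7-fold (4.06, SE 0.82, adjusted p = 0.00652) and RT1-DMb rose 8.60-fold (3.10, SE 0.34, adjusted p = 2.33e-04). RT1-Ba had a log2 fold change of 2.41 (SE 1.13, adjusted p = 0.155) and did not pass, although all 3 IC rats were above both Normal rats. It passed when IS-HA rat 2 was left out of the fit (2.41, adjusted p = 0.00657). The median log2 fold change of the 8 was 3.81, against 0.0033 over all genes. Normal has only 2 rats, and without Normal rat 1 and without Normal rat 3 the number that passed was 5 and 3 (6.43% and 4.92% of all genes), with the lone Normal rat assumed to vary like the other groups. By limma on log2(TPM + 1) the number was 5, against 9.87% of all genes.

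In severe hemorrhage against Normal all 8 passed, against 18.8% of all genes tested. RT1-Da had the largest fitted change of the 8, 78.1-fold (log2 fold change 6.29, SE 0.63, adjusted p = 6.05e-05), and RT1-DMa the smallest, 11.4-fold (3.51, SE 0.47, adjusted p = 2.81e-04). Cd74 rose 47.0-fold (5.55, SE 0.88, adjusted p = 7.10e-04). RT1-Db1 rose 42.3-fold (5.40, SE 0.84, adjusted p = 6.53e-04) and RT1-Bb 45.04-fold (5.49, SE 1.03, adjusted p = 0.00180). RT1-Ba rose 11.9-fold (3.58, SE 1.16, adjusted p = 0.0253), a call that was lost without Normal rat 1 (adjusted p = 0.116), without Normal rat 3 (adjusted p = 0.126) and without IS rat 4 (adjusted p = 0.0672). The median log2 fold change was 5.45, against 0.018 over all genes. Ciita and RT1-Bb had under 10 reads in the Normal rats and passed the filter on low counts through their hemorrhage libraries. The remaining 6 genes had at least 10 reads in every rat, and in a fit on genes with that many reads 6 of 6 passed in IS (17.3% of all genes) and in IS-HA (14.0%) and 5 of 6 in IC (9.86%).

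After aspiration the class II genes were still above Normal, 8 of 8 passing against 15.1% of all genes tested. RT1-Da was 43.2-fold higher (log2 fold change 5.43, SE 0.61, adjusted p = 1.99e-04), Cd74 26.3-fold (4.72, SE 0.84, adjusted p = 0.00251) and RT1-DMb 10.2-fold (3.35, SE 0.35, adjusted p = 1.18e-04). The median log2 fold change was 4.71, against 0.056 over all genes. Without IS-HA rat 2 all 8 still passed, against 12.7% of all genes, and the median was 3.93, and the value for RT1-Ba went from 4.44 (SE 1.19) to 2.21 (SE 0.55, adjusted p = 0.0142). RT1-Ba lost its call in IS-HA without Normal rat 1 (adjusted p = 0.0982), without Normal rat 3 (adjusted p = 0.123) and in a fit of these 2 groups alone (adjusted p = 0.0842), and by limma Ciita, at 0.82 on the log2(TPM + 1) scale, fell short of the fold cutoff. For all 8 genes every rat of IC, IS and IS-HA was above both Normal rats, as was the case for 32.4%, 37.6% and 31.7% of all genes. The 3 comparisons with Normal share its 2 rats.

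**Figure D2:**
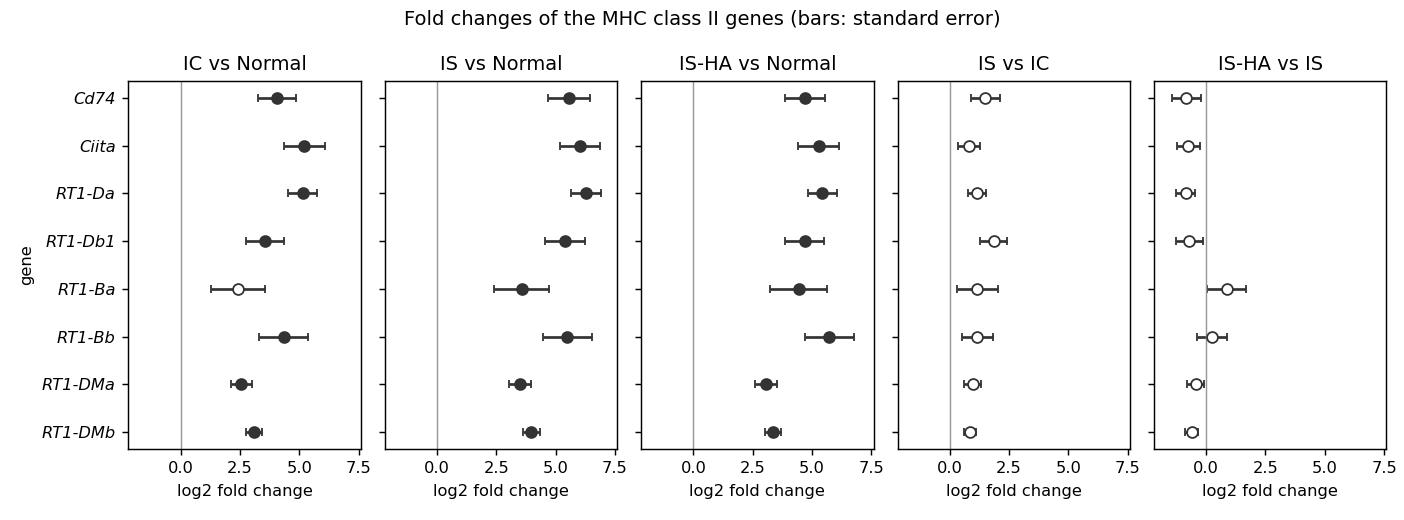
Log2 fold change of each class II gene in the 5 comparisons, with bars for the standard error of edgeR's fit. Filled points passed the test (adjusted p under 0.05 and a log2 fold change of at least 1). Against Normal all points but RT1-Ba in IC are filled, whereas none is filled for IS against IC or for IS-HA against IS.

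The comparison of IS with IC asked whether the larger bleed went with a larger class II response. The groups also differ in collagenase dose and injected volume, which cannot be told apart from the size of the bleed. All 8 genes had a higher mean in IS, with log2 fold changes from 0.81 for Ciita to 1.85 for RT1-Db1 (SE 0.57, 3.60-fold), but none passed, with adjusted p from 0.156 to 0.413. Of all 15742 genes edgeR called 0.0% higher and 0.0% lower. At an unadjusted p under 0.05 with a log2 fold change of at least 1, 3 of the 8 were higher (Cd74, RT1-Da and RT1-Db1), against 3.37% of all genes. Every IS rat was above every IC rat for 6 of the 8, all but Ciita and RT1-Ba, against 19.2% of all genes. RT1-Db1 was the member that passed in 2 other fits, DESeq2's Wald test (1.87, SE 0.57, adjusted p = 0.0292, with 1.73% of all genes called higher) and edgeR without IS-HA rat 2 (1.84, SE 0.47, adjusted p = 0.0344, with 2.19%). In the latter fit RT1-DMa (0.96, adjusted p = 0.0398) and RT1-DMb (0.86, adjusted p = 0.0347) had an adjusted p under 0.05 but less than the required fold. The median log2 fold change of the 8 was 1.15, against -0.0010 over all genes, and 0.66 without IS rat 4.

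Aspiration was compared with untreated severe hemorrhage. The samples held no severe hemorrhage with the catheter but without aspiration, so the procedure and the removal of blood cannot be told apart. No member passed, against 0.0% of all genes called lower and 0.00635% called higher, and adjusted p ran from 0.553 to 0.928. Of the 8, 6 had a lower mean in IS-HA, with log2 fold changes from -0.85 for RT1-Da (SE 0.40) to -0.44 for RT1-DMa (SE 0.36), while RT1-Ba was at 0.86 (SE 0.84) and RT1-Bb at 0.23 (SE 0.64). RT1-DMb alone had an unadjusted p under 0.05 (-0.61, SE 0.26, unadjusted p = 0.0413, adjusted p = 0.553), and 3.36% of all genes were lower at that level with no fold cutoff. For none of the 8 were all IS-HA rats below the IS rats, as for 5.42% of all genes, or all above them, as for 4.96%.

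These values depended on IS-HA rat 2. Without it all 8 log2 fold changes were negative, from -1.66 for Cd74 (SE 0.57, adjusted p = 0.0930) to -0.88 for RT1-DMb (SE 0.25, adjusted p = 0.0635), and RT1-Ba was at -1.37 (SE 0.45, adjusted p = 0.0824) and RT1-Bb at -1.05 (SE 0.44, adjusted p = 0.142). Still none passed, against 0.541% of all genes called lower in that fit. The median of the 8 went from -0.66 to -1.06, and it was -0.14 when IS rat 4 was left out instead.

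Within a rat, ratios between class II genes are free of differences in depth, and 5 of them were compared in TPM. The α to β ratio RT1-Da to RT1-Db1 was 3.49, 3.86 and 3.46 in IC rats 2, 3 and 4 and 2.85, 2.36 and 2.01 in IS rats 2, 3 and 4, so all IS rats were below all IC rats. The mean log2 ratio was 1.85 ± 0.087 in IC and 1.25 ± 0.25 in IS (SD, n = 3), a difference of -0.60 (exact two-sided permutation p = 0.1, the smallest that 3 against 3 rats allow, and 0.5 after adjustment over the 10 ratio tests). RT1-DMa to RT1-DMb stayed near 1, at 0.928 to 1.03 in IC and 1.04 to 1.08 in IS (difference of log2 means 0.11, exact p = 0.1, adjusted 0.5). The other 3 ratios, RT1-Ba to RT1-Bb, RT1-Da to RT1-Ba and Cd74 to RT1-Da, overlapped between IC and IS, with exact p from 0.2 to 0.9.

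None of the 5 ratios separated IS-HA from IS (exact p from 0.8 to 1.0), but in each of them IS-HA rat 2 lay outside the range of the other 8 hemorrhage rats. RT1-Da to RT1-Ba was 0.335 in this rat, against 1.91 to 3.05 in the other 8 and 0.453 and 0.269 in the Normal rats. RT1-Da to RT1-Db1 was 1.39 against 2.01 to 3.86, and RT1-DMa to RT1-DMb was 1.41 against 0.928 to 1.08. Cd74 to RT1-Da was 14.0 against 5.88 to 9.995, and RT1-Ba to RT1-Bb was 6.42 against 2.57 to 4.38. The α chain RT1-Da was thus low beside its partners in this rat, and RT1-Ba high, on 324 and 341 reads. RT1 genes vary in sequence between rat strains, the rats are of an outbred stock and the reads were placed on the genome of another strain, and how completely each rat's RT1 reads were counted was not tested.

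**Figure D3:**
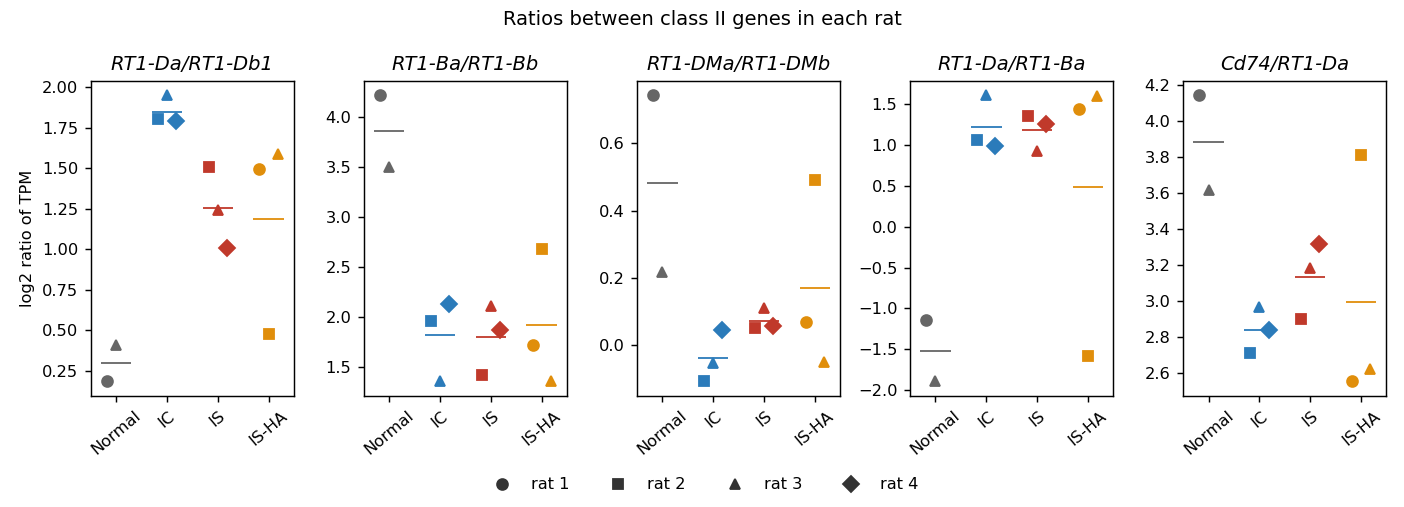
Log2 ratio of TPM between class II genes in every rat, with group means as lines and symbols for the rat's number. IS-HA rat 2 (square) lies away from the other hemorrhage rats in all 5 panels, and the ratio of RT1-Da to RT1-Db1 is lower in the 3 IS rats than in the 3 IC rats.

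Other genes of the pathway were taken from lists by function, whose choice was made with earlier results of these data known. Among the other class II genes, RT1-DOa and RT1-DOb encode DO, which restrains DM, and RT1-Db2 is a second RT1-D β chain. Of the 3 tested, 0 passed in IC, and RT1-DOa and RT1-Db2 passed in IS and in IS-HA. These calls depended on single rats: in IS-HA both were lost without IS-HA rat 2 (adjusted p = 0.0583 for RT1-DOa and 0.0549 for RT1-Db2), in IS that of RT1-Db2 was lost without IS rat 4 (adjusted p = 0.0573), and in IC RT1-DOa passed without IS-HA rat 2 (adjusted p = 0.0353) and by DESeq2's Wald test (adjusted p = 0.0198). RT1-DOa had 2 reads over both Normal rats and 68 over the IS rats, a ratio of 37.9 (95% exact interval 10.1 to 320). RT1-Db2 had a log2 fold change of 1.79 in IS (SE 0.56, adjusted p = 0.0213), beside 5.40 for RT1-Db1, and RT1-DOb had 1.41 (SE 0.77, adjusted p = 0.150). RT1-Ha had too few reads to be tested.

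The factors that assemble on class II promoters are present in most cells. Of the 7 (Rfx5, Rfxank and Rfxap of the RFX complex, the 3 NF-Y subunits and Creb1) 0 passed in any of the 5 comparisons, with a median log2 fold change of -0.057 in IS against Normal. Rfxank was at 0.90 (SE 0.34, adjusted p = 0.0464), Nfya at 0.65 (SE 0.25, adjusted p = 0.0477) and Creb1 at -1.12 (SE 0.56, adjusted p = 0.116). The first pair missed the fold cutoff and Creb1 the adjusted p, although Creb1 passed as lower in IS without IS-HA rat 2 (-1.12, SE 0.28, adjusted p = 0.00591). The summed level of the 7 was 176 to 177 TPM in Normal and 167 to 182 TPM in IS.

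Interferon-γ is the classical inducer of Ciita. Its own transcript, Ifng, was nearly absent, with 1 read over all 11 rats (in an IS rat), too few to be tested. Of 8 tested genes of its pathway, 6 rose in IS against Normal, 5 in IC and 5 in IS-HA, or 6 in IS-HA without rat 2, with Irf2 added (1.17, SE 0.21, adjusted p = 0.00295). In IS the transcription factors Irf8 (log2 fold change 3.09, SE 0.31, adjusted p = 5.78e-05) and Irf1 (2.18, SE 0.32, adjusted p = 4.96e-04) rose, as did the receptor chain Ifngr1 (2.94, SE 0.30, adjusted p = 6.66e-05).

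The enzymes that prepare peptides in endosomes and lysosomes rose together with the members, 8 of 8 in each comparison with Normal. Ifi30, the thiol reductase of the endosome, had a log2 fold change of 5.62 in IS (SE 0.72, adjusted p = 2.14e-04), Ctsz, a cathepsin, 5.27 (SE 0.65, adjusted p = 1.81e-04) and Lgmn, legumain, 4.66 (SE 0.51, adjusted p = 9.41e-05). Ctss, the cathepsin known for trimming the invariant chain, rose by 1.75 (SE 0.32, adjusted p = 0.00141), from 156 ± 35.9 TPM in Normal to 523 ± 112 TPM in IS. The median of the 8 was 4.38 in IS, beside 5.45 for the class II members.

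Of 7 tested genes of co-stimulation and class II turnover, 4 rose in each comparison with Normal. In IS the T cell ligands Cd80 and Cd86 had log2 fold changes of 3.78 (SE 0.53, adjusted p = 3.75e-04) and 3.56 (SE 0.39, adjusted p = 9.95e-05), and Cd40 had 4.67 (SE 0.54, adjusted p = 1.28e-04). Between IS and IC the log2 fold change of Cd80 was 0.020 (SE 0.36, adjusted p = 0.998). Marchf1, a ligase that removes class II from the surface, was at 0.53 in IS and did not pass. Of 6 tested genes of the MHC class I route all 6 rose in each comparison with Normal, by a median of 2.82 in IS, led by the immunoproteasome subunits Psmb8 (4.06, SE 0.53, adjusted p = 2.56e-04) and Psmb9 (3.69, SE 0.55, adjusted p = 4.93e-04) and by Nlrc5, the class I counterpart of Ciita (2.82, SE 0.49, adjusted p = 0.00115). No gene of these 6 lists passed edgeR's test on all 11 rats in IS against IC or in IS-HA against IS. In IS against IC, 3 of the 8 endolysosomal genes were higher by DESeq2's Wald test (Lgmn, Ctsb and Ctsl, adjusted p = 0.0181, 0.0282 and 0.0216) and 3 by edgeR without IS-HA rat 2 (Lgmn, Ctsb and Ctsz, adjusted p = 0.0241, 0.0344 and 0.0331). In IS-HA against IS without that rat, Psmb8 was lower (-1.06, SE 0.26, adjusted p = 0.0491).

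**Figure D4:**
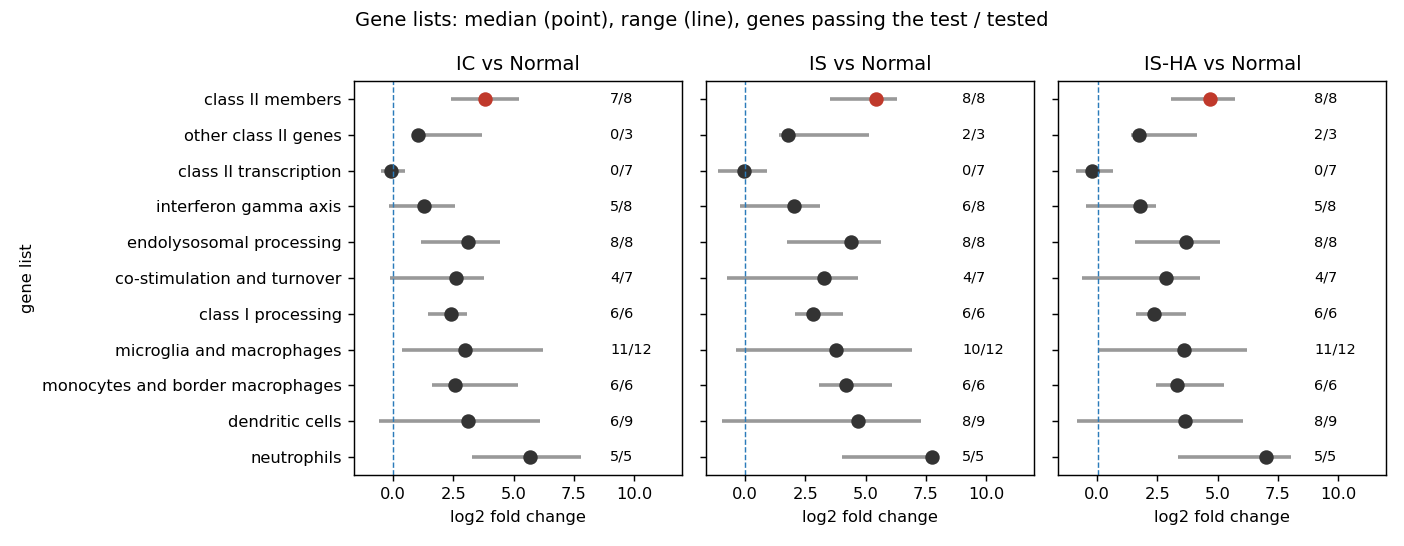
Median log2 fold change (point) and range (line) of the class II members and of 10 other gene lists in the 3 comparisons with Normal. Figures at the right give the genes that passed the test over those tested, and the dashed line is the median of all genes. The class II members have medians of 3.81, 5.45 and 4.71, below those of the neutrophil markers, and the transcription factors of class II promoters lie around 0.

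Markers of the cells that can carry class II also rose. Of 12 microglia and macrophage markers 11 rose in IC, 10 in IS and 11 in IS-HA, and their summed level was 302 to 434 TPM in Normal, 2568 to 3469 TPM in IC, 4649 to 5797 TPM in IS and 3404 to 5578 TPM in IS-HA, the highest of the last being rat 2. All 6 markers of monocytes and border macrophages rose in each comparison with Normal, from 28.5 to 32.9 TPM in Normal to 694 to 909 TPM in IS. Of 9 tested dendritic cell markers 8 rose in IS and in IS-HA, or 6 in IS without IS rat 4 and 6 in IS-HA without IS-HA rat 2 (8.40 to 9.12 TPM in Normal, 90.3 to 249 TPM in IS), led in level by Clec10a, while Clec9a and Xcr1 were at 3.00 ± 2.86 and 0.344 ± 0.223 TPM and Cd209a was at 0 in all rats. The remaining tested marker, Zbtb46, had negative log2 fold changes against Normal in IC (-0.60), IS (-0.94) and IS-HA (-0.83), none passing. The B cell markers Ms4a1 and Pax5 were at or near 0, with 0 and 3 reads over the 3 IS rats, and the summed level of the list, 44.97 to 79.6 TPM in IS, came mostly from Blnk, at 55.1 ± 19.5 TPM. Of 7 tested T cell markers 5 rose in IS, with Cd8a at 256 ± 163 TPM making up most of 175 to 464 TPM, beside 0.788 ± 0.178 TPM for Cd3e. All 5 tested neutrophil markers rose in each comparison with Normal, by a median log2 fold change of 5.67 in IC, 7.74 in IS and 6.99 in IS-HA (5.84 without rat 2), and the summed level of the 7 markers listed ran from 5.03 to 5.23 TPM in Normal, 84.7 to 267 TPM in IC, 494 to 697 TPM in IS and 169 to 858 TPM in IS-HA, again highest in rat 2. Neuronal markers fell, 7 of 8 in IS. The part of these cells in the class II levels was not tested beyond the following comparison.

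The mean log2 level of the 8 members was set against that of 4 general myeloid markers (Aif1, Csf1r, Itgam and Tyrobp), with IC at 0 on both scales. These log2 levels carry a prior count of 2, which pulls up levels near the floor. Ciita was at -3.26 and -4.105 in the Normal rats on this scale, while its fitted log2 fold change in IC against Normal was 5.22. The class II mean was -3.23 and -3.65 in the Normal rats, and the myeloid mean -2.77 and -3.26. In IS rats 2, 3 and 4 the class II mean was 0.64, 0.76 and 1.89 and the myeloid mean 0.20, 0.33 and 0.94. In IS-HA rats 1, 2 and 3 the class II mean was -0.19, 1.62 and 0.27 and the myeloid mean 0.063, 0.41 and 0.072. Class II relative to myeloid markers was thus -0.43 ± 0.051 in Normal (n = 2), 0.61 ± 0.30 in IS and 0.38 ± 0.75 in IS-HA (SD, n = 3 each), with an SD of 0.29 in IC. All 3 IS rats lay above all 3 IC rats on this relative scale, a difference of 0.61. Its exact two-sided permutation p was 0.1, the smallest that 3 against 3 rats allow, and 0.25 after adjustment over 5 comparisons. Against Normal the exact p was 0.2 in each comparison, the smallest that 3 against 2 rats allow, and 0.25 adjusted. For IS-HA against IS it was 0.8. IS-HA rat 2 was at 1.21 against -0.26 and 0.20 in the other IS-HA rats. Between IS and IC the 4 markers had log2 fold changes of 0.77 (Aif1), 0.10 (Csf1r), -0.043 (Itgam) and 1.23 (Tyrobp), none passing. The relative level thus depends on the markers averaged, and the change of Tyrobp was above the members' median of 1.15. The members did not all move alike either. Relative to the myeloid markers RT1-Da was lower in Normal than in IC by a mean of 1.88, whereas RT1-Ba was higher in Normal by 0.82 and RT1-DMa by 0.47. Of the homeostatic microglia genes, Cx3cr1 rose in each comparison with Normal (log2 fold change 1.60 in IC, 1.71 in IS and 1.59 in IS-HA), P2ry12 rose in IC (1.13) and IS-HA (1.14) and was at 0.47 in IS, and Tmem119 was at 0.36, -0.38 and 0.044. With IC at 0, the mean log2 level of these 3 was -1.03 ± 0.34 in Normal (n = 2), -0.41 ± 0.10 in IS and -0.10 ± 0.26 in IS-HA (SD, n = 3 each).

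**Figure D5:**
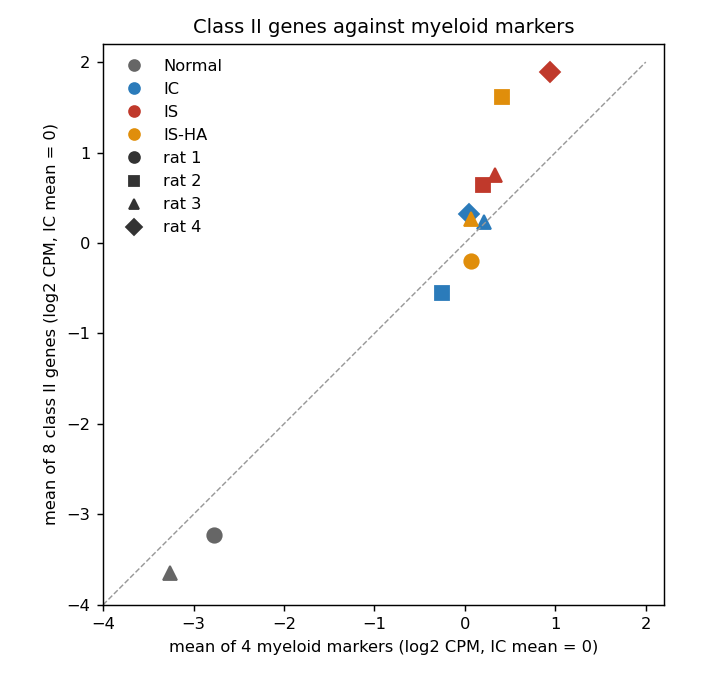
Mean log2 CPM of the 8 class II genes against that of 4 myeloid markers in every rat, each set to 0 at the IC mean, with colours for groups and symbols for the rat's number. The dashed line marks equal change of both. The Normal rats lie below the line, and the 3 IS rats and IS-HA rat 2 lie above it. The IC rats and IS-HA rats 1 and 3 lie on either side of the line, from -0.30 in IC rat 2 to 0.28 in IC rat 4.

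The genes whose level over the 11 rats was most like the mean of the members were Gna15 (Pearson r = 0.998), Cyba (0.998), Cmtm7 (0.998), Laptm5 (0.997) and Fmnl3 (0.997). These values describe 11 libraries that share the step from Normal to hemorrhage. Over the 9 hemorrhage rats alone the closest were Gna15 (0.994), Cyba (0.992), Gpx1 (0.991), Tfeb (0.991) and Fxyd5 (0.990), 2 of them shared with the first 5. Among the members themselves, r with the mean, which includes each gene, was highest for Cd74 (0.996 over 11 rats, 0.989 over the 9) and lowest for RT1-Ba (0.907 and 0.894).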

How the data were processed

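Per the labels and the study's methods, poly(A) RNA of the ipsilateral striatum was made into stranded libraries. The submitters' processing notes name fastp 0.20.0, HISAT2 2.1.0, SAMtools 1.9, featureCounts and build mRatBN7.2, which is of another strain, and the strand setting of the counting is not given in the sources used here. The deposited table holds read counts per gene and TPM computed by the authors for 30560 genes, 4447 of them without a symbol. Counts were fitted with edgeR 4.0.16 (filterByExpr, TMM, quasi-likelihood, 4 groups, Benjamini-Hochberg over 15742 genes) in R 4.3.3. DESeq2 1.42.0 and limma 3.58.1 on log2(TPM + 1) were alternatives. A gene passed at an adjusted p under 0.05 and a log2 fold change of at least 1. The members and lists were chosen with earlier results of these data known. Genes outside the members are named by a fixed rule: from each pathway list the 3 with the largest change in IS against Normal, and the 5 most like the members. Ctss, Ctsb, Ctsl, Irf2, Marchf1, Ifng and the cell markers named were chosen after their values were seen. The list genes Icosl, Psmb10, Cd4, Hba-a1, Hba-a2 and Itgae are not analysed here. The fit was tested on simulated data for IS against IC, with 200 genes changed and a common spread for all genes. At the same adjusted p and fold cutoff it recovered 99.5%, 85% and 24.5% of them at log2 changes of 2, 1.5 and 1. Changes near a log2 of 1 in IS against IC could thus be missed. Larger ones could be missed too, since real genes do not share one spread. In the data Clec10a, at 2.25 (SE 0.49, adjusted p = 0.143 by edgeR), did not pass. The recovery in the simulation therefore does not carry over to genes that vary more between rats. One sample is one rat, no rats of a group shared a library (chi-square per degree of freedom of 11.5 to 87.7), and intervals cover counting error only.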

Additional observations from a re-analysis of the deposited data

How the results depend on the processing

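Of 150 values of single members per comparison, 135 kept direction and call in IC against Normal (12 lost the call and 3 gained it), 146 in IS against Normal (4 lost it), 145 in IS-HA against Normal (5 lost it), 148 in IS against IC (2 gained it) and 145 in IS-HA against IS (5 reversed). With the replicate number as a block, 824 of 15742 genes were called higher in IC against Normal, against 1720 without the block. The number of members passing in IC against Normal was 3 with the block and 8 without IS-HA rat 2 (2030 of 15897 genes higher), and it fell when either Normal rat was left out. In IS against IC it was 1 by DESeq2's Wald test and 0 to 1 when one rat was left out. The deviations of same-numbered IC and IS rats correlated at 0.356, -0.340 and 0.085, too few values to tell whether the label numbers pair the rats. The block changed no count of members in IS against IC or IS-HA against IS. No member passed there without it, so no call could be lost. With the block RT1-Ba lost its call in IS (adjusted p = 0.217) and in IS-HA (adjusted p = 0.0729) against Normal. In IS-HA against IS, log2 fold changes reversed for RT1-Db1 (-1.43 to 0.11 with one rat left out), RT1-Ba (-1.37 to 1.39) and RT1-Bb (-1.05 to 0.71, and -0.066 by limma), and with one rat left out the class II mean relative to myeloid markers ran from -0.64 to 0.095. In the log2 ratios, TPM + 1 reversed RT1-Ba to RT1-Bb (0.15) and RT1-Da to RT1-Ba (0.0090) in IS against IC. With one rat left out these ran from -0.24 to 0.17 and from -0.15 to 0.16. In IS-HA against IS, RT1-Da to RT1-Db1 then ran from -0.27 to 0.29, RT1-Ba to RT1-Bb from -0.26 to 0.40, RT1-DMa to RT1-DMb from -0.063 to 0.21, RT1-Da to RT1-Ba from -1.25 to 0.34 and Cd74 to RT1-Da from -0.55 to 0.081. The 5 genes most like the members shared 2 with the 9 hemorrhage rats alone and 0 by Spearman's rho, by which 13 genes tied at 1. Scaling by library size alone moved the median of all genes to 0.14 in IC and 0.15 in IS against Normal. The causes were not tested. Depth limits Ciita, RT1-Bb and RT1-DOa in Normal.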
